A study of Mus musculus with 4 samples.

Results

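Interleukins are secreted signalling proteins, and most act on receptors built from 2 or more chains. The genes described here are those whose symbol in the deposited table begins with Il and a number, which takes in ligands, receptor chains, decoy receptors and binding proteins. They number 85 of the 46603 genes in the table, under 83 symbols, since Il11ra2 is listed under 3 identifiers. The rule uses names only and no measured value. The RNA was that of ventricles from mice of the C57Bl6/J strain, 8 to 12 weeks old. Some were wild type (WT) and the others null for P2Y6 (P2Y6 KO), a receptor for extracellular nucleotides encoded by P2ry6. The mice had been injected each day for 7 days with saline or with 50 mg/kg/day of isoproterenol, a beta-adrenergic agonist that is used to provoke cardiac hypertrophy. There was 1 library for each of the 4 groups, and the sources used here do not give whether a library holds 1 heart or a pool. Each ratio below therefore compares libraries, without a replicate check and without a p-value, and only the additive fit of both factors gives one.

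In the injured heart interleukins are made by macrophages, fibroblasts, endothelial cells and lymphocytes, and cardiomyocytes carry several of the receptors. Receptors of the IL-1 family signal through Toll-like adaptors, those of the gp130 and common gamma chain families through JAK kinases and STAT factors. One chain can serve several ligands, so the genes are taken by family, with ligands before receptors.

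Levels are in CPM as deposited, which are reads per 1000000 counted in the library. Sets of 4 values always stand in the order WT saline, WT isoproterenol, P2Y6 KO saline, P2Y6 KO isoproterenol. Ratios between libraries are ratios of reads after TMM scaling, a correction for differences in composition, followed by a 95% counting interval. Only a gene with its entire interval past 1.5-fold was counted as higher or lower. The libraries held 18771198 to 25637369 reads. Without molecular identifiers reads are not separate molecules, and the intervals cover counting error only. P2ry6 itself stood at 5.11, 5.89, 0.566 and 0.533 CPM, low in both P2Y6 KO libraries. Markers of cardiomyocytes summed to 66759, 62797, 65911 and 54430 CPM. With isoproterenol 3 of 8, Myh6, Tnni3 and Myl2, were counted as lower in P2Y6 KO (4.22% of all genes tested) and 0 in WT. Markers of atrial muscle summed to 178 to 264 CPM in 3 libraries and 888 CPM in the P2Y6 KO isoproterenol library. Of those 888 CPM 700.5 were Nppa, which ventricles also express under load. The atrial light chain Myl7 stood at 77.0, 56.6, 49.1 and 63.9 CPM and Sln at 16.4, 12.3, 11.1 and 15.9 CPM. Myl4 stood at 88.1, 68.7, 52.4 and 99.9 CPM, and Bmp10 had 35, 74, 1 and 149 reads. With isoproterenol in P2Y6 KO, 3 of the 5 markers were counted as higher, Nppa, Myl4 and Bmp10 (7.09% of all genes tested). Myl4 and Bmp10 were also counted as lower in saline P2Y6 KO than in saline WT.

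Of the 85 genes, 16 had 0 reads in all 4 libraries, 32 had reads but a mean under 10, and 37 reached that mean and entered the comparisons, for which 14301 genes in all were tested. The 37 were 26 receptor chains, 7 ligands, the binding protein Il18bp and 3 genes of other kinds. Their median mean count was 109 reads against 330 for all genes tested. Those at 0 throughout were the epithelial IL-1 relatives Il1f5, Il1f6, Il1f8 and Il1f10, the neuronal receptor Il1rapl2, the IL-10 relatives Il20, Il22 and Il24 with the receptor Il20ra, and Il3, Il9, Il17a, Il31 and the 3 Il11ra2 entries. A count of 0 allows up to 3 reads, or 0.117 to 0.16 CPM by library. The summed level of all 85 genes was 599, 552, 592 and 706 CPM.

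**Figure D1:**
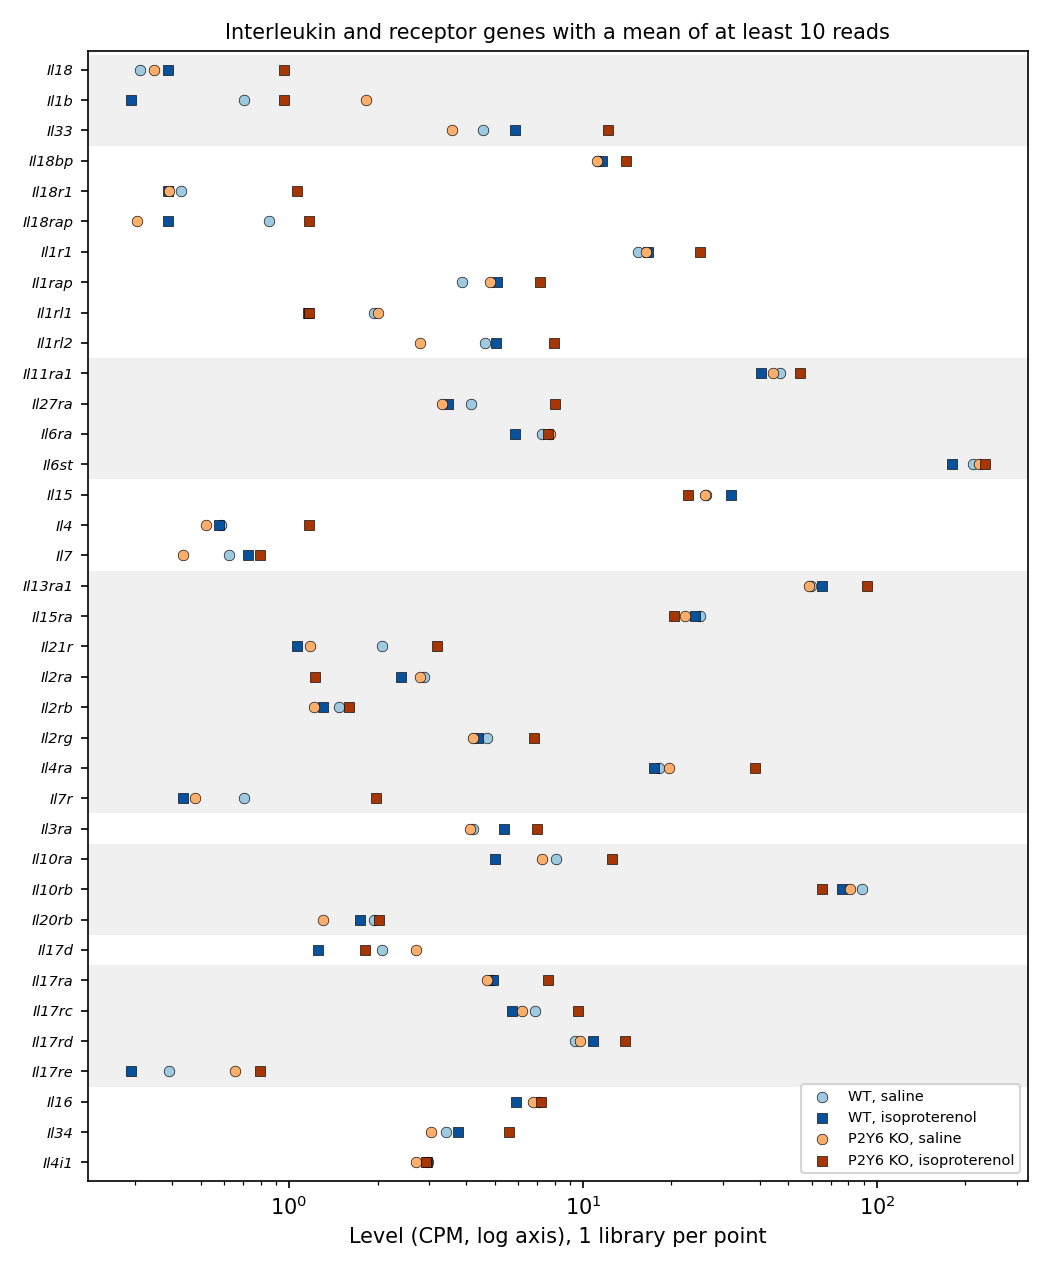
Level in CPM (log axis) of the 37 interleukin and receptor genes that passed the read minimum, 1 point per library, circles for saline and squares for isoproterenol, blue for WT and orange to brown for P2Y6 KO, with shaded bands marking families. Receptor chains such as Il6st, Il10rb and Il13ra1 sit at the right and ligands such as Il18, Il4 and Il7 at the left, but the kinds overlap. The receptor chains Il17re and Il18r1 had means of 0.533 and 0.568 CPM, and the ligand Il15 had 26.7 CPM. The P2Y6 KO isoproterenol library holds the highest value for 28 of the 37 genes, against 56.0% of all genes tested.

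Counted per length of exon, which allows levels of different genes to be compared, receptor chains led. Il10rb, the shared second chain of the IL-10 family receptors, had a mean of 20.4 CPM per kb over the 4 libraries, Il6st, the gp130 signalling chain, 19.1 and Il13ra1, a receptor chain for IL-13 and IL-4, 18.6. The ranges of these 3 over the libraries overlapped (17.04 to 23.4, 16.3 to 21.0 and 15.8 to 24.8 CPM per kb), so their order is not settled. Il15 followed at 11.8 CPM per kb and was the only ligand among the 10 highest, beside Il11ra1, the IL-11 receptor, at 10.4 and Il15ra at 5.15. Next came Il18bp, a secreted protein that captures IL-18, at 3.97 CPM per kb, Il4ra at 3.89, Il1r1, the signalling receptor for IL-1, at 2.89 and Il17rc at 2.66. Il33 stood at 2.27 CPM per kb, while Il18, Il1b and Il4 were each under 1.

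By CPM, 28 of the 37 genes were highest in the P2Y6 KO isoproterenol library, against 56.0% of all genes tested, and 4 were lowest there. The 4 lowest were Il10rb, Il15, Il15ra and Il2ra, and the share of all genes tested that were lowest there was not computed. In the WT pair 0 of 37 genes were counted on either side (background 1.66% of all genes tested, 0.860% higher and 0.797% lower), and the median log2 ratio was −0.05. In the P2Y6 KO pair 5 were counted as higher (background 7.09%) and 1 as lower (background 4.22%), 6 in all against 11.3%, with a median of 0.44. With total-count scaling, which moves the median of all genes in that pair by 0.18, 7 were higher and 0 lower (10.1% and 2.50% of all genes tested under that scaling) and the median was 0.63. With an interval clear of no change, a weaker criterion, 19 of 37 were higher (background 27.2%) and 8 lower (background 27.6%) in the P2Y6 KO pair, or 23 and 5 with total-count scaling, where 42.5% and 15.5% of all genes were. The same criterion gave 6 higher (background 15.3%) and 5 lower (background 16.1%) in the WT pair, or 2 and 7 with total-count scaling, where 9.04% and 26.3% of all genes were.

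**Figure D2:**
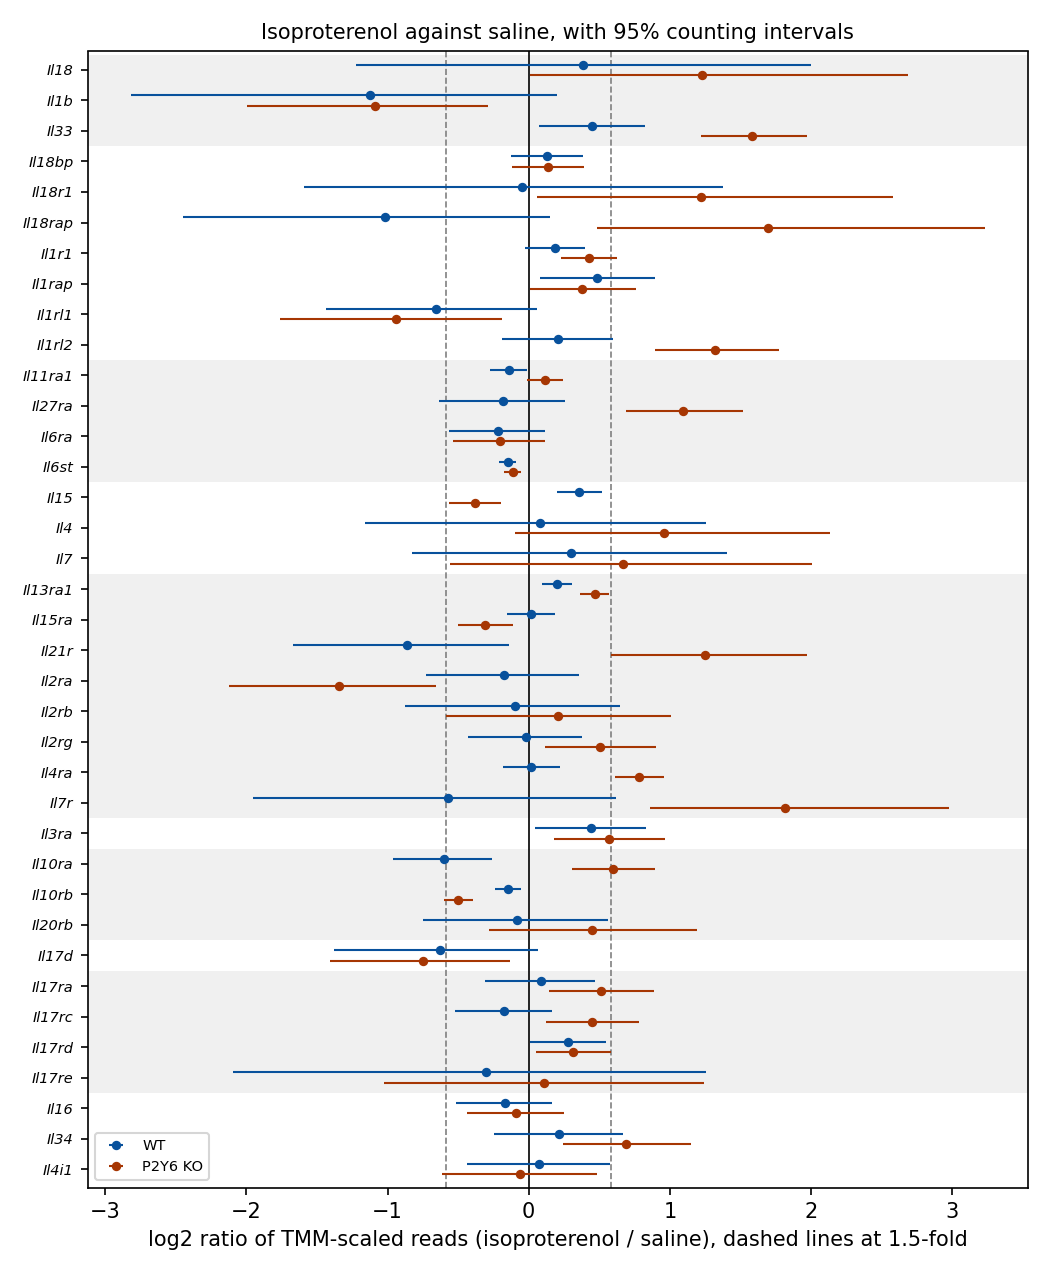
log2 ratio of TMM-scaled reads, isoproterenol over saline, for the 37 genes in the order of the plot of levels, WT in blue and P2Y6 KO in brown, with bars for the 95% counting interval and dashed lines at 1.5-fold. In WT no interval lies wholly beyond a dashed line, and in P2Y6 KO those of Il33, Il1rl2, Il27ra, Il4ra and Il7r lie beyond it on the right and that of Il2ra on the left.

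Markers of the cells that carry these receptors differed between the libraries too. The 10 macrophage and monocyte markers summed to 350, 349, 323 and 803 CPM, and 7 of 10 were counted as higher in the P2Y6 KO pair (background 7.09%). The 7 fibroblast markers summed to 953, 1333, 858 and 3240 CPM, with 5 of 7 higher in that pair (background 7.09%). On either side 11.3% of all genes tested were counted there. The 9 T and NK cell markers summed to 4.72, 5.21, 4.92 and 6.34 CPM with 0 of 5 tested counted, and the 7 endothelial markers to 1034, 955, 1005 and 1000 CPM with 0 of 7. Mast cell markers summed to 10.5 to 12.99 CPM with 0 of 5 tested counted. Neutrophil markers summed to 3.98, 7.19, 4.62 and 9.06 CPM, with Ly6g at 0 in all 4 libraries and 0 of 3 tested counted. B and plasma cell markers summed to 16.4, 12.9, 22.4 and 22.2 CPM, and 1 of 5 tested, Jchain, was counted. Jchain was 5.73-fold higher (3.77 to 9.34) in saline P2Y6 KO than in saline WT (background 0.273%). In the P2Y6 KO pair it was 2.58-fold lower (1.83 to 3.74), with a background of 4.22%. Those of group 2 innate lymphoid cells, a list that holds Il7r and Il1rl1 themselves, summed to 31.4 to 38.6 CPM. Of 3 tested 1, Il7r itself, was higher in the P2Y6 KO pair (background 7.09%). Mesothelial markers summed to 11.2, 10.8, 9.84 and 18.5 CPM, with 1 of 5, Msln, higher in the P2Y6 KO pair (background 7.09%). Smooth muscle and pericyte markers summed to 1203, 1150, 1072 and 1218 CPM and adipocyte markers to 482, 469, 462 and 391 CPM. Macrophage, fibroblast and mesothelial markers stood high in the same library as Il4ra, Il7r, Il10ra, Il21r, Il27ra and Il33, and their part in those ratios was not tested. The cardiomyocyte and adipocyte sums were lowest in that library, as were Il10rb, Il15, Il15ra and Il2ra, and the part of those cells was not tested either. In such bulk samples fewer cells of a type and less RNA per cell cannot be told apart.

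**Figure D3:**
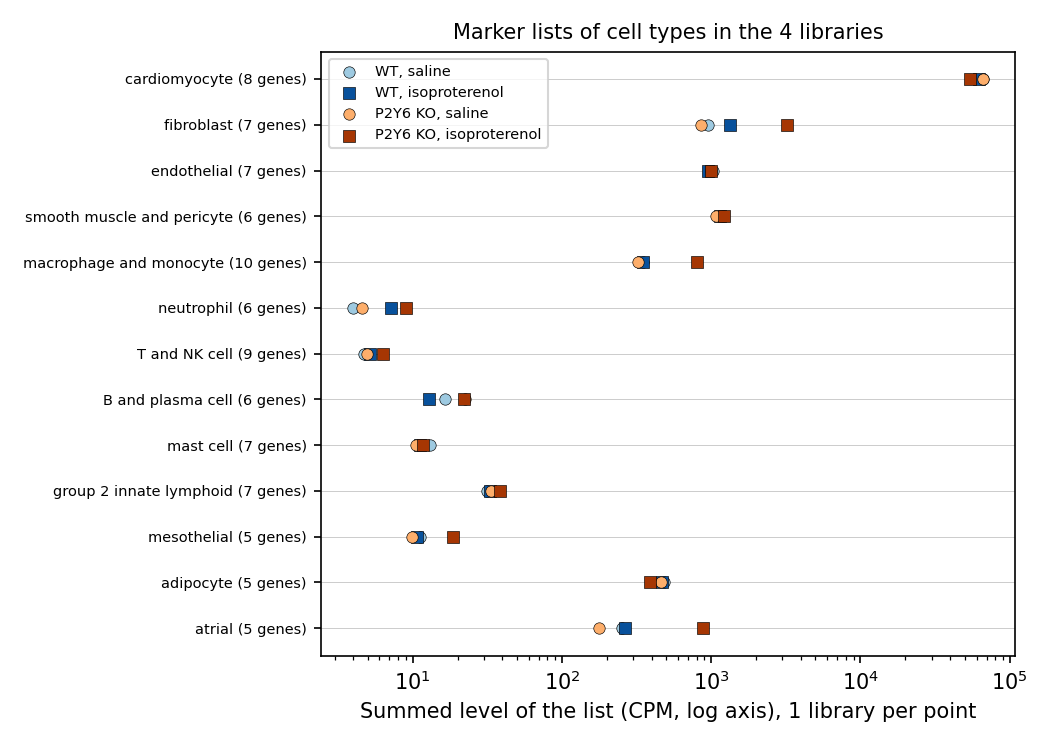
Summed level in CPM (log axis) of marker lists of 13 cell types, 1 point per library, circles for saline and squares for isoproterenol, blue for WT and orange to brown for P2Y6 KO. The macrophage and fibroblast lists reach 803 and 3240 CPM in the P2Y6 KO isoproterenol library, above the other 3 libraries, while the endothelial list stays between 955 and 1034 CPM.

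Among ligands of the IL-1 family, Il33 was the most abundant per length and the only one above the read minimum that was counted as different with treatment. Il33 (ENSMUSG00000024810, GRCm38 chromosome 19, 29925114 to 29960718, plus strand, protein coding) encodes a nuclear alarmin that stromal cells release when damaged. It stood at 4.56, 5.89, 3.57 and 12.2 CPM, highest in the P2Y6 KO isoproterenol library. Isoproterenol libraries held 1.36-fold more Il33 reads (1.05 to 1.77) in WT and 3.0-fold more (2.33 to 3.92) in P2Y6 KO. The log2 difference of these responses was 1.14 (0.62 to 1.65), which was counted, making it 1 of 6 genes counted of 37 (background 5.57%). In the 6 the higher response was in P2Y6 KO, and 0 differences were counted the other way (backgrounds 3.83% and 1.73%). The limma fit of treatment and genotype over the 4 libraries gave Il33 an adjusted p of 0.115 for treatment, the lowest of the 37 genes, at a log2 difference of 0.92 ± 0.29 (SE). RefSeq gives 2 starts for Il33, and the table of totals per gene does not say which was used. The 300 bases around each (GRCm38.p6, chr19:29924863-29925162 and chr19:29945540-29945839, plus strand) are shown because Il33 was the only ligand above the read minimum to be counted in the P2Y6 KO pair.
Il33, upstream start: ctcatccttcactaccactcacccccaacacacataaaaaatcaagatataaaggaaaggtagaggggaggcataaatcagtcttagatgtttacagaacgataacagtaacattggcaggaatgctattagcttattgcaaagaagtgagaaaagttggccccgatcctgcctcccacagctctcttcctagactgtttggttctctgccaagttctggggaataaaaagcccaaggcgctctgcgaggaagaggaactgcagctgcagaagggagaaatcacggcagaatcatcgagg
Il33, downstream start: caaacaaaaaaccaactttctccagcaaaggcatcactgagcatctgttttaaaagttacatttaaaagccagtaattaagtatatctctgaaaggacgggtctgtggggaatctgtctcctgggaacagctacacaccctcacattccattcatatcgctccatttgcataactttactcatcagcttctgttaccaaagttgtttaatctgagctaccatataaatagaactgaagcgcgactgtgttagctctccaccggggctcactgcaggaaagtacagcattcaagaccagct
Neither window holds the letters TTCNNNGAA (STAT), TGANTCA (AP-1), TGACGTCA (cyclic AMP response element) or an NF-kB motif of 3 G, any 2 bases, 3 T and 2 C, read on both strands, which says nothing of the factors themselves.

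The other IL-1 family ligands were rare. Il1b, the main inflammatory IL-1, had 18, 6, 42 and 18 reads (0.702, 0.29, 1.83 and 0.959 CPM). It was the 1 gene of 37 counted in the saline comparison of P2Y6 KO with WT (background 0.489%, of which 0.273% higher and 0.217% lower), 2.65-fold higher (1.52 to 4.97) in the P2Y6 KO library. Total-count scaling gave 2.56-fold (1.47 to 4.81), no longer counted. Under isoproterenol the P2Y6 KO library was 2.71-fold higher (1.09 to 8.8), and in both genotypes the treated library was the lower, 2.18-fold (0.873 to 7.06) in WT and 2.13-fold (1.22 to 3.99) in P2Y6 KO. Il1b shares 25 exonic bases with the antisense gene Il1bos, which had 0, 0, 3 and 1 reads. Il1rn, the natural antagonist of the IL-1 receptor, had 6, 4, 5 and 23 reads, a mean under 10, with 4.61-fold more (1.84 to 16.7) in the treated P2Y6 KO library than in saline P2Y6 KO. Il18, a cytokine activated by caspase-1, had 8, 8, 8 and 18 reads, and Il1a 1, 1, 3 and 3.

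For the receptors of this family the treated P2Y6 KO library stood high for most chains but not for the receptor of IL-33. Il1rl1, which encodes the IL-33 receptor ST2, had 50, 24, 46 and 22 reads, low in both isoproterenol libraries. It was lower with isoproterenol by 1.58-fold (0.961 to 2.71) in WT and 1.92-fold (1.14 to 3.38) in P2Y6 KO, neither of them counted. Its co-receptor chain Il1rap stood at 3.86, 5.12, 4.83 and 7.14 CPM and was 1.4-fold higher (1.05 to 1.86) in WT and 1.3-fold (1 to 1.69) in P2Y6 KO. Il1r1 stood at 15.4, 16.6, 16.4 and 25.0 CPM and was 1.34-fold higher (1.17 to 1.54) with isoproterenol in P2Y6 KO.

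Il1rl2, the receptor for the IL-36 cytokines, stood at 4.64, 5.07, 2.79 and 7.94 CPM. It was 2.5-fold higher (1.86 to 3.42) in the treated P2Y6 KO library and was counted, against 1.15-fold (0.879 to 1.51) in WT. Part of that ratio lies in the saline libraries, where P2Y6 KO was 1.6-fold lower (1.18 to 2.22). Of its ligands, Il1f6 and Il1f8 had 0 reads and Il1f9 had 2, 0, 1 and 1. Both chains of the IL-18 receptor were rare. Il18r1 had 11, 8, 9 and 20 reads and was 2.33-fold higher (1.04 to 5.98) with isoproterenol in P2Y6 KO, with a wide interval. Il18rap had 22, 8, 7 and 22 reads and was 3.23-fold higher (1.4 to 9.39) with isoproterenol in P2Y6 KO and 2.02-fold lower (0.902 to 5.46) in WT. The log2 difference of these responses, 2.71 (1.06 to 4.36), was counted, and saline P2Y6 KO was already 2.6-fold lower (1.12 to 7.54) than WT. Il18bp stood at 11.2, 11.6, 11.2 and 13.96 CPM and differed from no change in none of the 4 comparisons. It lies on chromosome 7, 1040 kb from P2ry6. The receptor genes Il1r2, Il1r1, Il1rl2, Il1rl1, Il18r1 and Il18rap all lie on chromosome 1, with gaps of 62.0 kb between Il1rl2 and Il1rl1 and 14.5 kb between Il18r1 and Il18rap.

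Ligands of the gp130 and IL-12 families were near the floor. Il6, the ligand best known from acute inflammation, had 1, 0, 9 and 14 reads, more in both P2Y6 KO libraries than in either WT library. Under saline the P2Y6 KO library was 7.32-fold higher (1.44 to 456), a ratio that rests on 1 WT read. Under isoproterenol, with 0 reads in WT, it was at least 3.16-fold higher by the lower end of the counting interval, and 4.45-fold higher when the 14 reads are set against the floor of 3. Its mean is under 10 reads, so Il6 was not among the genes tested. Il11, a fibroblast cytokine of the same family, had 1, 2, 1 and 5 reads, Il12a 9, 4, 3 and 2, Il23a 6, 2, 2 and 2, and Il12b and Il27 at most 2 in any library. The promoter window of Il6 (GRCm38.p6, chr5:30012864-30013163, plus strand) is shown because this ligand had reads mainly in P2Y6 KO, with capitals for an AP-1 match (TGANTCA) at its first bases and an NF-kB match further on.
Il6: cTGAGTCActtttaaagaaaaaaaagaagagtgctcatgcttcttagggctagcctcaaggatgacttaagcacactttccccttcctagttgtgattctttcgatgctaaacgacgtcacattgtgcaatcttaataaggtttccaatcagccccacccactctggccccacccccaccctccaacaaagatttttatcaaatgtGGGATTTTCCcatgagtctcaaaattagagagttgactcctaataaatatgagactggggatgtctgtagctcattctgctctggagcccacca
Matches of these kinds occur in 7.81% and 1.63% of the 32851 promoter windows of this length in RefSeq, and in 17.3% and 9.88% of the 81 windows of genes described here (66 symbols matched). TTCNNNGAA occurs in 8.30% of all windows and 13.6% of the 81, and TGACGTCA in 1.79% and 0. These shares are descriptions of letters, and several windows belong to the same gene.

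The receptor chains of the IL-12 and IL-23 ligands were as rare as the ligands, with Il12rb1 at 6, 5, 4 and 3 reads, Il12rb2 at 4, 2, 3 and 4 and Il23r at 0, 1, 0 and 1. Those of the gp130 family were more abundant. Il6st stood at 211, 180, 222 and 233 CPM. With isoproterenol it was 1.11-fold lower (1.06 to 1.16) in WT and 1.08-fold lower (1.04 to 1.13) in P2Y6 KO, and the direction in P2Y6 KO turned with total-count scaling, from −0.11 to 0.07 on the log2 scale. The IL-6 binding chain Il6ra, at 7.26, 5.89, 7.75 and 7.62 CPM, differed from no change in none of the 4 comparisons. Il11ra1 stood at 46.9, 40.2, 44.4 and 54.7 CPM. Its near-identical copies Il11ra2 had 0 reads, and how reads that fit both were handled is not known. The 1 chain of these families that was counted was Il27ra, a receptor chain for IL-27 that pairs with gp130. It stood at 4.17, 3.47, 3.31 and 8.04 CPM and was 2.14-fold higher (1.62 to 2.86) with isoproterenol in P2Y6 KO but 1.13-fold lower (0.835 to 1.55) in WT. Its log2 difference of responses was 1.28 (0.69 to 1.86) and was counted.

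Of the common gamma chain ligands only Il15 was abundant. Il15, which sustains natural killer and memory T cells and is also made by muscle, stood at 26.3, 31.9, 26.1 and 22.7 CPM. It was 1.28-fold higher (1.15 to 1.43) with isoproterenol in WT and 1.3-fold lower (1.15 to 1.48) in P2Y6 KO, so the pairs differed in opposite directions. Under isoproterenol P2Y6 KO was 1.62-fold lower (1.43 to 1.84), and under saline the genotypes were level at 1.03-fold (0.919 to 1.15). Its presenting receptor Il15ra, at 25.1, 24.0, 22.2 and 20.4 CPM, was likewise lowest in the treated P2Y6 KO library, 1.37-fold below treated WT (1.2 to 1.57). Il4 had 15, 12, 12 and 22 reads and Il7 16, 15, 10 and 15, while Il2, Il13 and Il21 had at most 2 in any library.

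Among the counted genes of the P2Y6 KO pair, that for the IL-4 receptor had the narrowest interval. Il4ra (ENSMUSG00000030748, GRCm38 chromosome 7, 125552120 to 125579474, plus strand, protein coding) encodes the chain shared by the IL-4 and IL-13 receptors. It stood at 18.1, 17.4, 19.6 and 38.4 CPM, high in 1 library and level in the other 3. The treated P2Y6 KO library was 1.72-fold higher (1.53 to 1.94) than its saline counterpart and 1.9-fold higher (1.68 to 2.17) than treated WT, both counted, and the WT pair differed by 1.01-fold (0.88 to 1.16). Il13ra1 stood at 59.8, 65.0, 58.7 and 92.2 CPM and was 1.38-fold higher (1.29 to 1.49) with isoproterenol in P2Y6 KO and 1.15-fold (1.07 to 1.24) in WT. The shared gamma chain Il2rg, at 4.72, 4.39, 4.22 and 6.82 CPM, was 1.42-fold higher (1.08 to 1.87) in treated P2Y6 KO. It shares 30.5% of its exonic bases with Gm20489 on the same strand. The decoy receptor Il13ra2 had 0, 0, 3 and 1 reads.

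Il7r, which marks lymphocytes and some macrophages, had 18, 9, 11 and 37 reads (0.702, 0.434, 0.479 and 1.97 CPM). It was counted as higher in the treated P2Y6 KO library against saline P2Y6 KO, 3.52-fold (1.81 to 7.88), and against treated WT, 3.76-fold (1.86 to 9.23). Il21r had 53, 22, 27 and 60 reads, fewer in saline P2Y6 KO than in saline WT. With isoproterenol it was 1.82-fold lower (1.1 to 3.18) in WT and 2.37-fold higher (1.5 to 3.93) in P2Y6 KO, and treated P2Y6 KO was 2.56-fold above treated WT (1.57 to 4.45), which was counted. It lies 24.0 kb from Il4ra. Il2ra, the high-affinity chain for IL-2, had 74, 50, 64 and 23 reads and was the 1 gene counted as lower, 2.55-fold (1.58 to 4.36) in the P2Y6 KO pair. Total-count scaling gave 2.24-fold lower (1.39 to 3.84), no longer counted. Il2ra lies 12.1 kb from Il15ra on chromosome 2, and both were lowest in the treated P2Y6 KO library. Il2rb, the chain that IL-2 and IL-15 share, had 38, 27, 28 and 30 reads and did not differ beyond counting error. The promoter windows of Il4ra (chr7:125552021-125552320, plus strand), Il7r (chr15:9529827-9530126, minus strand) and Il2ra (chr2:11642542-11642841, plus strand), GRCm38.p6, are shown because these genes lay on opposite sides in the treated P2Y6 KO library. Capitals mark an NF-kB match on the opposite strand in Il4ra and a STAT match in Il7r, and Il2ra holds none of the 4 motifs.
Il4ra: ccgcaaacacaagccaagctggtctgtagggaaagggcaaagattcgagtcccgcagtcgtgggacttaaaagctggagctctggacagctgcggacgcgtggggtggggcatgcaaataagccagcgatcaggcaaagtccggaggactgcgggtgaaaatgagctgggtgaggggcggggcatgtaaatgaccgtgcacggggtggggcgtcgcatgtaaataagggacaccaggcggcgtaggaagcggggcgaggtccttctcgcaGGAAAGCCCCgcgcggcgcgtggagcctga
Il7r: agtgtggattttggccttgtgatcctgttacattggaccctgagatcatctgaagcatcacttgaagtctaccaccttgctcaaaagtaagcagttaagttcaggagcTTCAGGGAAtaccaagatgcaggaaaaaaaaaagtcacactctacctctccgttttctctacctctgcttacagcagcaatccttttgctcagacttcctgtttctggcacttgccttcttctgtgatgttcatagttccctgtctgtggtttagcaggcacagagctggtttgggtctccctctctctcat
Il2ra: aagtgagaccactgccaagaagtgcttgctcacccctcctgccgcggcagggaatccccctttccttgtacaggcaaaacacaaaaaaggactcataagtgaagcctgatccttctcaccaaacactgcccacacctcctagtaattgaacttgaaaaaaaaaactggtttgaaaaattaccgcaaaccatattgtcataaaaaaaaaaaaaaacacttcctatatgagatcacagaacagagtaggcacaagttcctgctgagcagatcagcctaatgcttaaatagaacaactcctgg

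The 2 chains of the IL-10 receptor parted in the treated P2Y6 KO library. Il10ra, the ligand-binding chain of leukocytes, stood at 8.07, 5.02, 7.27 and 12.5 CPM. It was 1.52-fold lower (1.2 to 1.95) with isoproterenol in WT and 1.52-fold higher (1.24 to 1.86) in P2Y6 KO, and treated P2Y6 KO was 2.15-fold above treated WT (1.7 to 2.74), which was counted. Il10rb, the broadly expressed chain, stood at 89.2, 76.2, 80.8 and 64.9 CPM and was 1.41-fold lower (1.31 to 1.52) with isoproterenol in P2Y6 KO and 1.11-fold lower (1.04 to 1.18) in WT. It shares 14.9% of its exonic bases with Gm21970 on the same strand. The ligand Il10 had 0, 0, 3 and 0 reads, and the IL-20 receptor chain Il20rb, at 50, 36, 30 and 38 reads, did not differ beyond counting error.

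Of the IL-17 family ligands only Il17d, which is expressed in muscle and other tissues outside the immune system, reached the read minimum. It had 53, 26, 62 and 34 reads, lower in both isoproterenol libraries by 1.54-fold (0.958 to 2.6) in WT and 1.68-fold (1.1 to 2.65) in P2Y6 KO. Il17ra, the common receptor chain, stood at 4.91, 4.92, 4.70 and 7.62 CPM and Il17rc, its partner, at 6.86, 5.74, 6.18 and 9.59 CPM. Both were higher with isoproterenol in P2Y6 KO, by 1.43-fold (1.1 to 1.85) and 1.37-fold (1.09 to 1.72), and level in WT at 1.06-fold (0.807 to 1.39) and 1.13-fold lower (0.891 to 1.44). Il17rd, which also inhibits growth factor signalling, stood at 9.40, 10.8, 9.80 and 13.9 CPM and was higher by similar ratios in both genotypes, 1.22-fold (1.01 to 1.46) and 1.25-fold (1.04 to 1.5). Il17re, the receptor chain for IL-17C, had 10, 6, 15 and 15 reads and did not differ beyond counting error.

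Among the remaining genes, Il3ra, the IL-3 binding chain, stood at 4.21, 5.41, 4.14 and 6.98 CPM and was higher with isoproterenol by 1.36-fold (1.03 to 1.78) in WT and 1.48-fold (1.13 to 1.96) in P2Y6 KO. Il34, a second ligand of the macrophage receptor Csf1r, stood at 3.43, 3.76, 3.05 and 5.59 CPM and was 1.61-fold higher (1.18 to 2.22) in treated P2Y6 KO. Il16, a chemoattractant for CD4 cells, at 7.06, 5.94, 6.75 and 7.19 CPM, did not differ beyond counting error. Il4i1, an amino acid oxidase, stood at 2.96, 2.94, 2.70 and 2.93 CPM, and 83.9% of its exonic bases are shared with Tbc1d17 on the opposite strand. The genes with reads but a mean under 10 that are not described above had at most 10 reads in any library. Among them were Il5, Il5ra, Il9r, Il17rb and Il22ra1.

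Set against WT, the P2Y6 KO libraries differed little under saline and more under isoproterenol. Under saline 1 of 37 genes was counted, Il1b (background 0.489%), and the median log2 ratio was −0.03. With an interval clear of no change 2 were higher (background 11.2%) and 4 lower (background 10.2%) under saline. Total-count scaling gave 2 and 5 there, where 6.38% and 16.8% of all genes were. Under isoproterenol 4 were counted as higher, Il4ra, Il7r, Il10ra and Il21r, and 0 as lower (backgrounds 4.20% and 1.80%), with a median of 0.31. With total-count scaling 6 were higher, Il27ra and Il33 being added, and 0 lower, against 7.30% and 0.783% of all genes. By that weaker criterion 17 were higher (background 22.8%) and 4 lower (background 22.2%) under isoproterenol. Total-count scaling gave 24 and 4, where 45.1% and 9.24% of all genes were. With TMM scaling the 4 genes lower under isoproterenol were Il10rb, Il15, Il15ra and Il2ra. The counts under isoproterenol share the treated P2Y6 KO library with those of the P2Y6 KO pair, so they are not separate evidence.

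**Figure D4:**
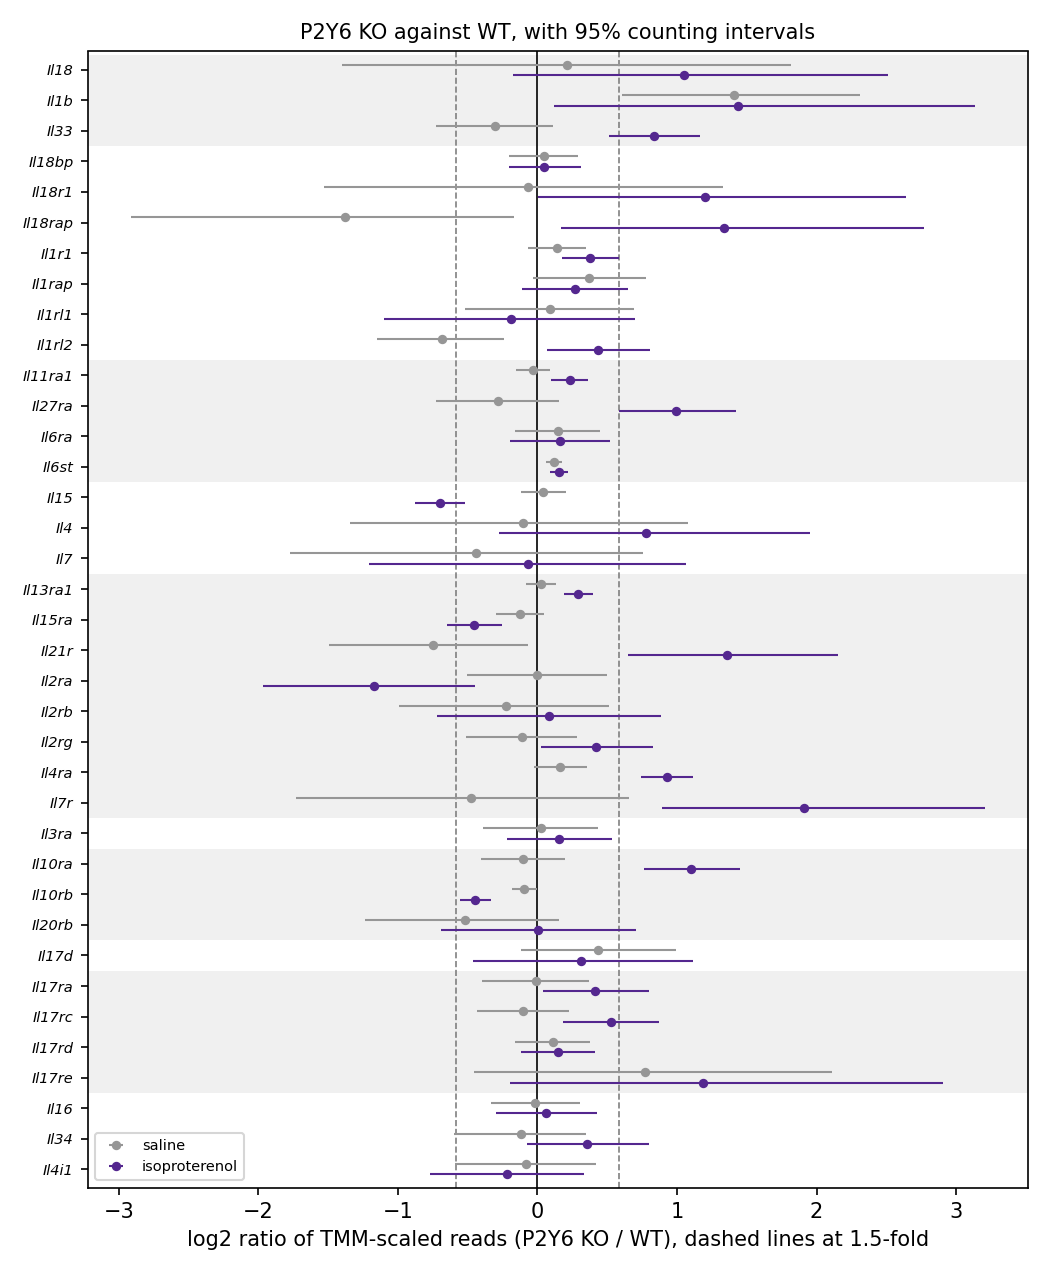
log2 ratio of TMM-scaled reads, P2Y6 KO over WT, for the same 37 genes, saline in grey and isoproterenol in purple, with bars for the 95% counting interval and dashed lines at 1.5-fold. Under saline only the interval of Il1b lies wholly beyond a dashed line, and under isoproterenol those of Il4ra, Il7r, Il10ra and Il21r do.

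The additive limma fit on log2(CPM + 1), which sets 2 libraries against 2 and leaves 1 residual degree of freedom per gene, called 0 of 37 genes for treatment (background 2.57%) and 0 for genotype (background 0.0979%) after Benjamini-Hochberg adjustment. At an unadjusted p under 0.05 it held 3 for treatment, Il13ra1, Il1rl2 and Il33, which is 8.11% of the 37 against 13.04% of all genes tested. For genotype it held 2, Il1b and Il4ra, which is 5.41% against 4.10%. The edgeR test and the DESeq2 test on recovered reads also called 0 for either term, with 4 and 1 at an unadjusted p under 0.05 for treatment (15.2% and 7.22% of all genes) and 2 and 0 for genotype (3.63% and 1.32% of all genes).

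Signalling genes that the interleukin receptors use were mostly level. In the P2Y6 KO pair 0 of 10 tested JAK and STAT genes were counted as higher and 1 as lower (backgrounds 7.09% and 4.22%). The lower gene was Stat5a, by 2.02-fold (1.78 to 2.3). Of 11 SOCS and related inhibitors, 0 were counted in the P2Y6 KO pair (background 11.3%). Between the genotypes under isoproterenol 1 of 11 was higher (background 4.20%). This was Socs3, the feedback inhibitor of gp130, 2.11-fold higher (1.61 to 2.82) in treated P2Y6 KO than in treated WT. Neither the 11 adaptors and kinases of the IL-1 and Toll-like receptors nor the 7 genes of the inflammasome held a counted gene in any comparison. Of 5 IL-17 adaptor genes 1 was higher in the P2Y6 KO pair (background 7.09%). This was Nfkbiz, an inducible nuclear cofactor of NF-kB, by 2.09-fold (1.67 to 2.64).

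Partner chains and related ligands outside the Il names also held counted genes. Of 7 tested gp130 partners 2 were higher and 1 lower in the P2Y6 KO pair (backgrounds 7.09% and 4.22%). In the WT pair 1 was higher and 1 lower (backgrounds 0.860% and 0.797%). Between the genotypes under isoproterenol 3 were higher and 0 lower (backgrounds 4.20% and 1.80%). Osmr, the oncostatin M receptor, was 1.74-fold higher (1.56 to 1.94) in treated than in saline P2Y6 KO. Lif, a gp130 ligand, was 3.76-fold higher (1.86 to 9.23) in treated P2Y6 KO than in treated WT. The ligand Ctf1 was lower with isoproterenol in both genotypes, 2.23-fold (1.6 to 3.2) and 2.4-fold (1.7 to 3.48). Of 8 tested genes for shared receptor chains and colony-stimulating factors 2 were higher in the P2Y6 KO pair and 0 lower (backgrounds 7.09% and 4.22%). They were Csf2rb, the beta chain for IL-3, IL-5 and GM-CSF, by 2.62-fold (1.98 to 3.51), and its copy Csf2rb2 by 3.08-fold (2.23 to 4.39). How reads that fit both copies were handled is not known. Known response genes of IL-4 and IL-13 did not follow 1 direction, with 1 of 5 tested higher and 2 lower in each pair. Backgrounds were 0.860% and 0.797% in the WT pair and 7.09% and 4.22% in the P2Y6 KO pair. Postn was 27.2-fold higher (25.8 to 28.6) in the P2Y6 KO pair, while Retnla, a marker of macrophages exposed to IL-4, was 3.91-fold lower (2.6 to 6.3) in WT and 10.2-fold lower (5.04 to 27.9) in P2Y6 KO. The eosinophil attractant Ccl24 was 3.31-fold lower (1.52 to 9.39) in the WT pair, and Ccl11, another, 3.91-fold lower (2.3 to 7.38) in the P2Y6 KO pair. Arg1 and Chil3 were under the read minimum.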

How the data were processed

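Libraries were of stranded messenger RNA, per the labels' protocols, and reads were counted per gene with HTSeq on GRCm38.p4 (mm10), per the submitters' processing notes. Which aligner, annotation release and strand setting were used was not given in the sources used here. The authors deposited CPM. A column whose heading names just a genotype was read as its saline group. In 100% of values the CPM was a whole multiple of that of 1 read (tolerance 0.01 reads), so reads could be recovered. The minimum for testing was 10 reads on average. Ratios used TMM factors (edgeR 4.0.16), 0.5 added to each count, and an exact conditional (Clopper-Pearson) 95% interval; the difference of responses used a normal interval on the log scale. The additive test, on log2(CPM + 1) of the deposited values, was limma 3.58.1 with its trend option; edgeR and DESeq2 1.42.0 on recovered reads were alternatives. The scripts were tested on simulated data. Positions, exon lengths and overlaps came from GENCODE M21 (GRCm38), where 83 of 85 identifiers matched, and promoters from RefSeq (GRCm38.p6), 250 bases before to 50 after a start. Named with values are genes counted in any comparison, those with a mean of at least 1 CPM and chains of the same receptors; the others are given by reads or counts. The genes and lists were chosen with earlier results of these data known, and the motifs, Il6, Il1rn and other genes under the read minimum after values were seen. Some results for genes of the signalling and partner lists are not reported here.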

Additional observations from a re-analysis of the deposited data

Results flagged for a closer look

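For 3 of the 37 genes the isoproterenol and saline libraries differed in opposite directions in the 2 genotypes, each with a counting interval clear of no change. The share of all genes tested that meet this rule was not computed, so whether 3 is many cannot be told. With 1 library per group the difference itself was not tested. The log2 response of Il21r was −0.86 in WT and 1.25 in P2Y6 KO, a difference of 2.11 (1.15 to 3.07). Part of that difference lies in the saline libraries, at 2.07 CPM in WT and 1.18 CPM in P2Y6 KO. For Il10ra the responses were −0.60 and 0.60 and the difference 1.20 (0.76 to 1.65). For Il15 they were 0.36 and −0.38 and the difference −0.74 (−0.97 to −0.50). With total-count scaling the 3 genes kept these directions, with differences of 2.37, 1.46 and −0.48.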

How the results depend on the processing

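No paired analysis was possible because each group holds 1 library, and leaving out a library removes a group from the ratios and the last residual degree of freedom from the additive fit. Of 97 recomputed values of the 17 counted genes and comparisons, 81 stayed counted in the same direction and 0 turned. The 81 include 17 with DESeq2 size factors, 17 with a count of 1 added and 17 without a filter on low counts. These settings alter the intervals little or not at all, so they test the calls weakly. With a 2-fold threshold 1 gene was counted in the P2Y6 KO pair (4.90% of all genes), 0 between the genotypes under saline (0.217%), 0 under isoproterenol (1.98%) and 2 in the difference of responses (1.85%). In the saline comparison of the genotypes 0 were counted with total-count scaling and 0 when 30 reads on average were required, the latter because Il1b is then not tested. Without a filter on low values the additive fit called 1 of 69 genes for genotype, Il6 (limma, adjusted p = 1.2e-05), at 0 to 14 reads per library. It then called 195 of all 24267 genes, against 14 of 14301 with the filter. The Il6 levels all lie under the 1 CPM added before the log, and each group holds 1 library. This p therefore does not measure replicate spread. The ratios without a filter counted 7 of 69 genes in the P2Y6 KO pair, Il1rn being added, where 1732 of all 24267 genes were counted. Between the genotypes under isoproterenol they counted 6 of 69, Il1rn and Il6 being added, and 910 over all genes. DESeq2 size factors and a count of 1 added changed no count of these genes. The DESeq2 factors lay close to the TMM factors, at 0.945 and 0.946 in WT isoproterenol and 1.095 and 1.096 in P2Y6 KO isoproterenol. The added count does not enter the exact interval, so in ratios between libraries it could not change a call. Over all genes the additive fit called 368 genes for treatment with limma, 965 without a filter, 1 with TMM scaling, 22 with edgeR and 174 with DESeq2, and for genotype 14, 195, 0, 3 and 13, so its calls depend on the scaling. Few reads limit what can be seen: Il4, at 12 and 22 reads, was 1.94-fold higher in the P2Y6 KO pair with an interval of 0.937 to 4.38.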
